A study of Mus musculus with 24 samples.

Results

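Kit, Hbb-y and Car2 encode a receptor, a globin and an enzyme known from the blood lineage, to which Kit and Car2 are not confined. Their RNA was followed here in mouse cells sorted by surface Flk1 from embryoid bodies. The 3 genes were taken as the probes annotated to 1 gene only whose gene is Kit, Hbb-y or Car2. Each had 1 such probe, so the set holds 3 of the 8973 named genes on the arrays. Embryoid bodies are aggregates of differentiating embryonic stem cells, and Flk1 (gene Kdr) is a receptor for vascular endothelial growth factor. Cells that carried Flk1 (Flk1+) and cells that did not (Flk1-) were profiled after 84 h, 95 h and 8 d of differentiation, with 4 samples in each of the 6 groups, 1 per array. On each of the 24 Agilent mouse development arrays the sample carried Cy5 and a common reference, RNA of homogenised whole pups, carried Cy3. All 6 groups are cells without added treatment as far as the labels say. The stem cell line, the sorting gates and whether the samples 1 to 4 of a group came from separate cultures are not given in the sources used here, so the spread on which the p-values rest may be technical only.

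Kit is a receptor tyrosine kinase that binds stem cell factor, the product of Kitl, and passes its signal on through phosphoinositide 3-kinase, Src homology adaptors, the Ras pathway and Stat proteins. It is known from blood stem and progenitor cells, mast cells, primordial germ cells and pigment cells, and it is also present on embryonic stem cells. Hbb-y encodes the embryonic beta-type globin of the primitive red cells that form in the yolk sac, where it pairs with the alpha-type globin zeta, the product of Hba-x. Car2 encodes carbonic anhydrase II, a cytosolic enzyme that interconverts carbon dioxide and bicarbonate and is abundant in mature red cells but also present in many other tissues.

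The sequences before the start sites of the embryonic globin genes are shown because Hbb-y and Hba-x, which lie on different chromosomes, were both higher at 8 d than at 95 h, and that of Kit is shown for comparison, since its RNA differed between the sorted fractions. They are the 250 bases upstream of the RefSeq start site on build GRCm38.p6, from chr7:103853208-103853457 on the minus strand for Hbb-y, chr11:32276350-32276599 on the plus strand for Hba-x and chr5:75574737-75574986 on the plus strand for Kit. Capitals mark, on either strand, the letters TGATAA, bound by GATA factors, the letters CCACCC, bound by Klf1 and related factors, the letters CCAAT, and, for the box near the start site, the letters ATAAAA, a form known from beta-type globin genes, and the letters TATAAA, the common form. The last was added after the Hba-x window had been read. ATAAAA and TATAAA can share letters with each other, but no matches overlap in these windows.
Hbb-y: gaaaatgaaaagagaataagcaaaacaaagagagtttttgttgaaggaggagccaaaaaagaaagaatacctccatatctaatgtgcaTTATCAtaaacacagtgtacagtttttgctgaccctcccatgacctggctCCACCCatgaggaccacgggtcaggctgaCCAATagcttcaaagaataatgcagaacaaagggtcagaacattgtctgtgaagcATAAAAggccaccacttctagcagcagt
Hba-x: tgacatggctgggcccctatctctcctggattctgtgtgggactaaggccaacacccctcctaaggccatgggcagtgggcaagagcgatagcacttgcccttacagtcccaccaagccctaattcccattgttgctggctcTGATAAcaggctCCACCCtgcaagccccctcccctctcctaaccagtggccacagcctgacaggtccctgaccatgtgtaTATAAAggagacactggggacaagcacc
Kit: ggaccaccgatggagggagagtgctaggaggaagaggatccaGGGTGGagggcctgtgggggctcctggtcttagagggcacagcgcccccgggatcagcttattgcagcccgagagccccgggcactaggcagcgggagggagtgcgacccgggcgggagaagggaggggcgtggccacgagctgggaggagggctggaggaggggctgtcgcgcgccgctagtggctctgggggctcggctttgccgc
The Hbb-y window held TGATAA on the minus strand 162 to 157 bases before the start, CCACCC at 112 to 107, CCAAT at 83 to 79 and ATAAAA at 28 to 23. The Hba-x window held TGATAA at 108 to 103, CCACCC at 96 to 91 and TATAAA at 28 to 23, the same distance as ATAAAA of Hbb-y. The Kit window held CCACCC on the minus strand at 208 to 203 and none of the other motifs. Of all 32851 windows of that length, TGATAA was in 7.94%, CCACCC in 28.1%, CCAAT in 33.8%, ATAAAA in 17% and TATAAA in 12.4%. The GC content was 42.0% for Hbb-y, 57.2% for Hba-x and 70.8% for Kit, against a median of 52.4%. A match describes letters in the window and says nothing about binding in these cells.

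The values are log ratios of sample over pup reference, read as log2, with each array's median set to 0, so a level is relative to the pups and levels of different genes cannot be ranked against each other. The log base is not given in the sources used here, and every fold below assumes base 2. The direction was read from other genes: 13 of 13 genes of pup tissues lay below 0 (median -1.84) and 10 of 10 stem cell genes above 0 (median 0.95). Kdr, which encodes the sorted protein, exceeded its Flk1- level in Flk1+ cells at 84 h, 95 h and 8 d by 1.91, 2.93 and 1.89 (limma adjusted p = 1.39e-05, 1e-07 and 0.000155). The Flk1+ 84 h arrays 2 and 4 stood apart, with Kdr at 0.036 and 0.67 where arrays 1 and 3 gave 1.80 and 1.43. When arrays were weighted by their fit over all features, these 2 arrays had the lowest weights (0.0703 and 0.0973). Flk1- 84 h array 4 had the lowest weight of its group (0.534). Arrays 1 and 2 of 95 h weighed less than that (0.422 and 0.259 in Flk1+, 0.218 and 0.196 in Flk1- cells) but were kept throughout. Results at 84 h are also given without Flk1+ arrays 2 and 4 and Flk1- array 4 where they change. These are the 3 arrays of 84 h named below. In such bulk samples fewer cells with a transcript and less of it per cell cannot be told apart.

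Kit was lower in Flk1+ than in Flk1- cells at 84 h and 95 h, by 2.61-fold and 2.75-fold, and the fractions were close together at 8 d. In Flk1+ cells at 84 h its log2 ratios were -0.82, -1.56, -0.94 and -1.63 on arrays 1 to 4, and in Flk1- cells 0.07, -0.12, 0.13 and 0.50. All 4 Flk1+ arrays lay below all 4 Flk1- arrays, and the lowest values came from Flk1+ arrays 2 and 4. At 95 h the Flk1+ arrays gave -1.06, -1.04, -0.65 and -1.25 and the Flk1- arrays 1.06, 0.37, 0.25 and 0.16, again without overlap. At 8 d the Flk1+ arrays gave 0.54, 0.43, 0.54 and 0.48, inside the span of the Flk1- arrays, which gave 0.34, 0.49, 0.76 and 1.30. The Flk1+ fraction at 8 d was the tightest of the 6 groups for Kit (SD 0.052, n = 4), against SDs of 0.25 to 0.42 in the other groups.

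**Figure D1:**
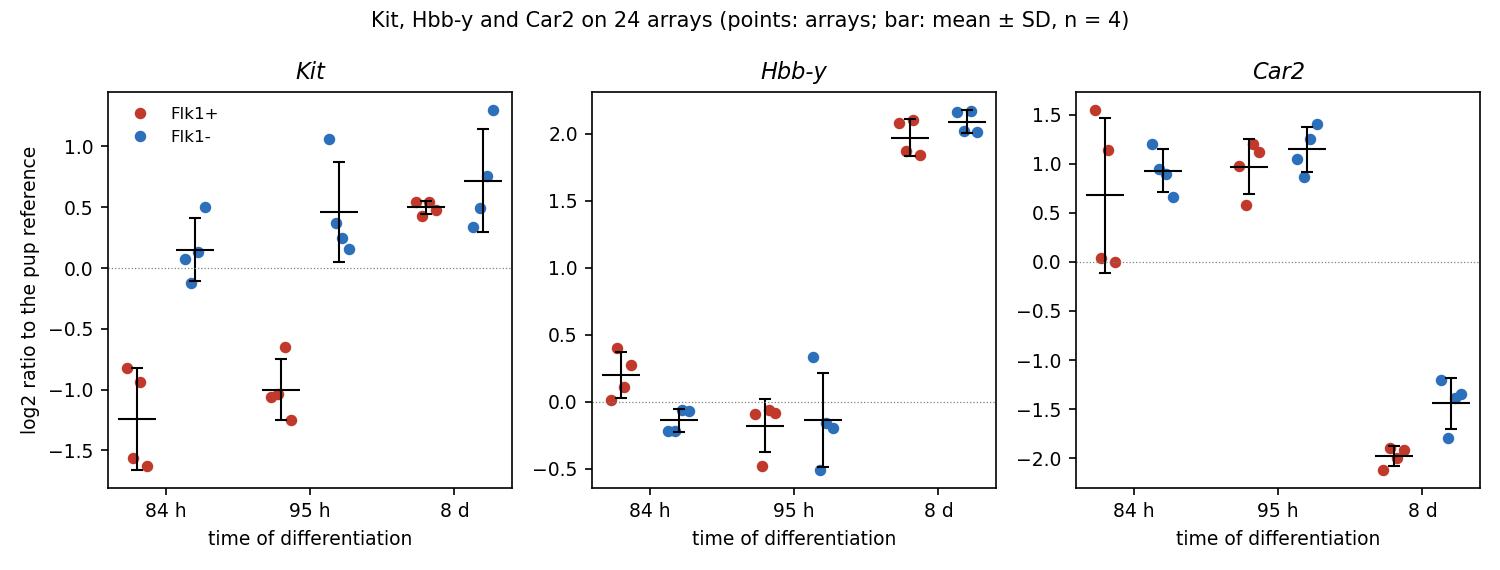
Log2 ratio to the pup reference (vertical axis) of Kit, Hbb-y and Car2 on each array, by time of differentiation (horizontal axis) and sorted fraction; points are arrays and bars give mean ± SD of 4 arrays. Kit separates the fractions at 84 h and 95 h, with Flk1+ arrays between -1.63 and -0.65, whereas Hbb-y and Car2 separate 8 d from the earlier times in both fractions.

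The fitted difference for Kit, Flk1+ minus Flk1-, was -1.38 at 84 h (SE 0.22, 95% interval -1.85 to -0.92, 2.61-fold lower, limma adjusted p = 0.000356). At that time 13.5% of the 17440 features passed the same threshold of 0.05, 5.3% higher and 8.18% lower in Flk1+ cells, and 17.4% did not overlap between the groups. Leaving out those 3 arrays of 84 h gave -0.91 (adjusted p = 0.0333). At 95 h it was -1.46 (SE 0.22, 95% interval -1.92 to -1.0, 2.75-fold lower, adjusted p = 0.000406), where 2.03% of features passed, 1.37% lower, and 4.81% did not overlap. These are 354 features at 95 h, and 545 with the replicate number as a block. At 8 d the difference was -0.22 with an interval from -0.68 to 0.24 (adjusted p = 1), so a difference of the size seen at 95 h lay outside the interval. At 8 d only 0.373% of features passed (65 features, 139 with the block).

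Over time Kit rose in the Flk1+ cells and did not pass the test in the Flk1- cells. From 95 h to 8 d the Flk1+ difference was 1.5 (SE 0.22, 95% interval 1.04 to 1.96, 2.83-fold higher, adjusted p = 3.63e-05), where 22.1% of features passed, 12.8% higher. In Flk1- cells it was 0.26 (95% interval -0.20 to 0.72, adjusted p = 0.471), where 17.7% of features passed. The difference between these changes, which is also the change of the sort difference from 95 h to 8 d, was 1.24 (SE 0.31, 95% interval 0.59 to 1.89). It had an unadjusted p of 0.000723 and missed the threshold over all features (adjusted p = 0.095), where 0.533% passed. It passed without the 3 arrays of 84 h, which enter only through the shared estimate of spread (1.24, adjusted p = 0.0244), and without Flk1- 8 d array 4, the array with the highest Kit value (1.43, adjusted p = 0.0402). From 84 h to 95 h the differences were 0.24 in Flk1+ (adjusted p = 0.462, with 19.8% of features passing, 8.62% lower) and 0.31 in Flk1- cells (adjusted p = 0.576, with 1.64% passing and 9.98% without overlap). The change of the sort difference over that interval was -0.076 (95% interval -0.73 to 0.58, adjusted p = 0.916), where 0.00573% of features, a single one, passed.

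Ordered by mean, Kit stood at 0.72 ± 0.42 in Flk1- 8 d, 0.50 ± 0.052 in Flk1+ 8 d, 0.46 ± 0.41 in Flk1- 95 h and 0.15 ± 0.26 in Flk1- 84 h (SD, n = 4 each). Each neighbour in this row overlapped the next. A gap of 1.15 with no overlap separated them from Flk1+ 95 h at -1.0 ± 0.25 and Flk1+ 84 h at -1.24 ± 0.42, which overlapped each other.

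The ligand of Kit showed no called difference. Kitl means (± SD, n = 4) were -1.96 ± 0.75 and -2.16 ± 0.55 in Flk1+ and Flk1- cells at 84 h, -1.34 ± 0.97 and -0.83 ± 0.28 at 95 h, and -1.03 ± 0.18 and -0.59 ± 0.095 at 8 d. The difference nearest to the threshold was 1.33 in Flk1- cells from 84 h to 95 h (adjusted p = 0.0699), which passed without the 3 arrays of 84 h. All arrays of both fractions lay below the pup reference for Kitl.

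The list of Kit and its signalling had 36 genes, of which 21 were measured, Kit among them. In Flk1+ cells at 84 h 1 was called higher and 4 lower, Kit included (list median 0.15). At 95 h 0 were called higher and 3 lower, Kit again included (median 0.013). At 8 d none was called in either direction, and 3 had an unadjusted p under 0.05 (limma). Over all features 5.3% were higher and 8.18% lower at 84 h, 0.659% and 1.37% at 95 h, and 0.149% and 0.224% at 8 d. The median over all 17440 features lay between -0.034 and 0.015 in each of the comparisons given here. Lower beside Kit at both early times were Pik3cd, which encodes the catalytic delta subunit of phosphoinositide 3-kinase, and Gab1, a docking adaptor. Pik3cd gave -1.07, -0.99, -1.15 and -0.57 on the Flk1+ 84 h arrays and 0.45, 0.27, 0.32 and 0.60 on the Flk1- arrays. Its difference was -1.36 at 84 h (adjusted p = 1.39e-05), -1.07 at 95 h (adjusted p = 0.000486) and -0.13 at 8 d. It rose in Flk1+ cells from 95 h to 8 d by 0.95 (adjusted p = 0.000219) and gave 0.013 in Flk1- cells. The difference of these changes was 0.94 and missed the threshold (adjusted p = 0.0846; 0.0321 without the 3 arrays of 84 h). Gab1 differed by less, -0.41 and -0.44 (adjusted p = 0.0244 and 0.0414), and kept its call in 8 of 15 and 7 of 15 alternatives. At 84 h Map2k1, a kinase of the Ras pathway, was called lower and the adaptor Gab2 higher, but without the 3 arrays neither passed, nor did Gab1 at that time (-0.34, adjusted p = 0.164). Of the list, 0 were then called higher and 2, Kit and Pik3cd, lower.

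**Figure D2:**
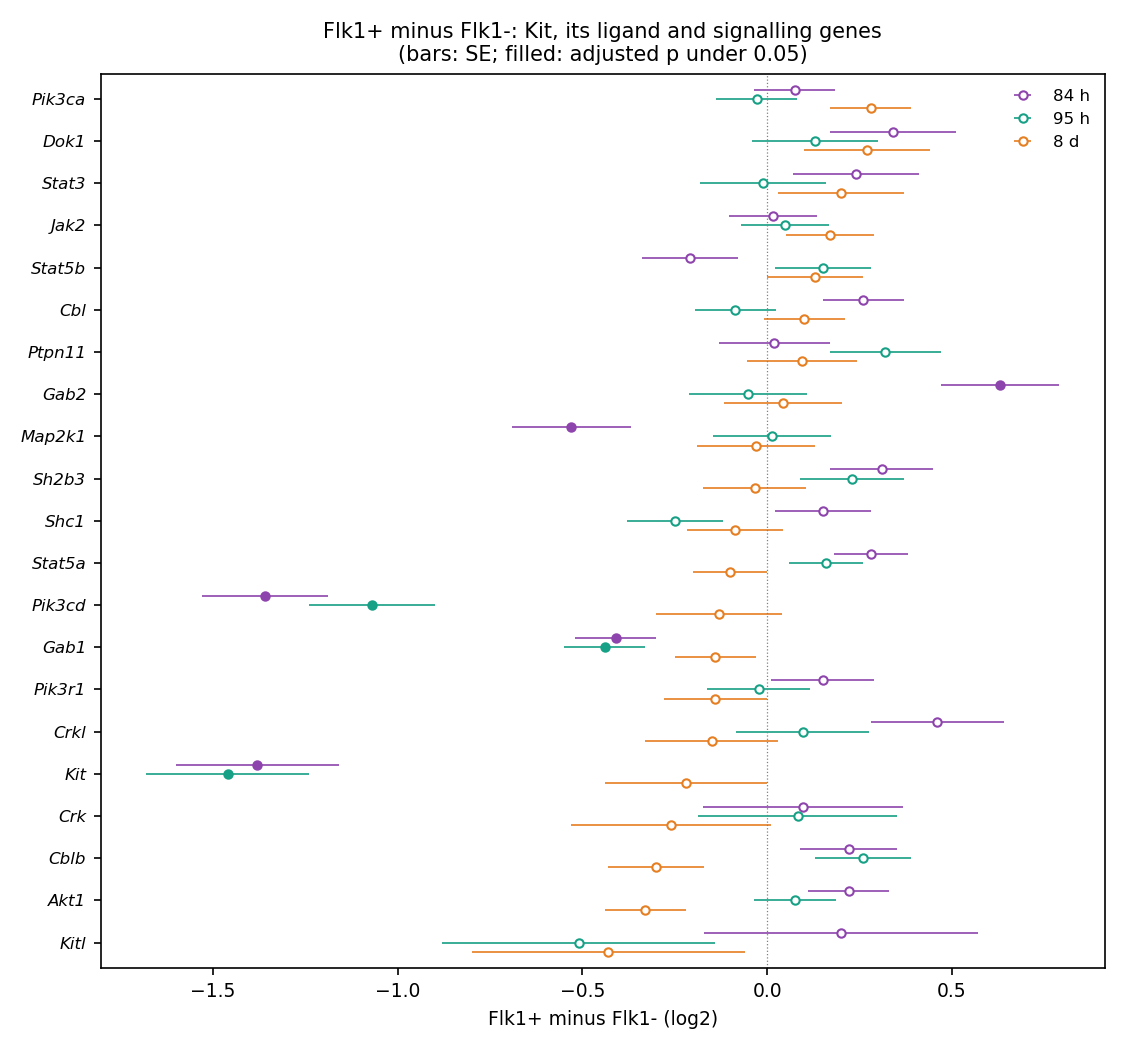
Flk1+ minus Flk1- difference in log2 (horizontal axis) for each of the 21 measured genes of Kit, its ligand and its signalling (vertical axis) at 84 h, 95 h and 8 d; bars are SE and filled points have an adjusted p under 0.05. Kit and Pik3cd lie at -1.46 to -1.07 at the early times; no gene is filled at 8 d.

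From 95 h to 8 d, 6 of the 21, Kit among them, rose in Flk1+ cells and 0 fell (list median 0.20). In Flk1- cells 5 rose, Kit not among them, and 1 fell (median 0.18). Over all features the shares were 12.8% and 9.31% in Flk1+ and 9.88% and 7.78% in Flk1- cells. The transcription factors Stat3 and Stat5b and the kinase gene Jak2 rose in both fractions. Stat3 rose by 1.05 in Flk1+ and 0.84 in Flk1- cells, Stat5b by 0.56 and 0.58, and Jak2 by 0.55 and 0.43. The call of Jak2 in Flk1- cells was lost with quantile normalization (adjusted p = 0.0615). Kit itself passed the test in Flk1+ cells and not in Flk1- cells over this time.

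Marker lists of other cell types were read beside Kit. Of 15 measured pluripotency markers, 9 were lower and 0 higher in the Flk1+ fraction at 84 h (median -0.72), 5 lower at 95 h (median -0.54) and 0 at 8 d (median -0.11). Over all features 8.18%, 1.37% and 0.224% were lower. Without the 3 arrays of 84 h, 5 were lower at 84 h (median -0.44) and 7 at 95 h. With the block Nanog was also called at 95 h, and Klf2 (higher) and Klf4 (lower) at 8 d. Their mean level per array lay between 0.48 and 0.86 in Flk1+ and between 1.57 and 1.71 in Flk1- cells at 84 h, 0.38 to 0.52 and 1.19 to 1.38 at 95 h, and -0.018 to 0.058 and 0.14 to 0.40 at 8 d. Of 7 measured germ cell markers, a list that includes Kit, 2 were called lower in Flk1+ cells at 84 h, Kit and Dppa3, and 3 at 95 h, Kit, Dppa3 and Ifitm3. Their mean level, in which Kit is counted, lay between -0.29 and 0.11 in Flk1+ and 0.37 and 0.74 in Flk1- cells at 84 h. At 95 h this level lay from -0.036 to 0.095 and from 0.63 to 0.94. From 95 h to 8 d, while Kit rose by 1.5 in Flk1+ cells, 1 pluripotency marker rose and 5 fell there (median -0.24), and of the germ cell markers Kit alone rose and 2 fell. In Flk1- cells, where Kit gave 0.26, 11 of the 15 pluripotency markers (median -1.11) and 5 of the 7 germ cell markers (median -0.79) fell. Over all features 12.8% rose and 9.31% fell in Flk1+ cells from 95 h to 8 d, and 9.88% and 7.78% in Flk1- cells. Of 10 measured endothelial markers, 1 was lower in Flk1+ cells at 84 h, Sox17, a call that held in 12 of 15 alternatives. Without the 3 arrays of 84 h it did not pass. With the block Eng (0.53, limma adjusted p = 0.0341) and Sox18 (0.33, 0.0383) were called higher there. At 95 h 2 were lower, Flt1 (called in 8 of 15 alternatives) and Sox17. At 8 d 3 were higher, Cdh5, Eng and Cd34. Over all features 8.18% were lower at 84 h, 1.37% were lower at 95 h and 0.149% were higher at 8 d. Between 95 h and 8 d, 6 of the endothelial markers rose and 0 fell in Flk1+ cells (median 0.61), and 1 rose and 2 fell in Flk1- cells (median -0.21). Their mean level lay between -1.01 and -0.90 in Flk1+ cells at 95 h and between -0.44 and -0.11 at 8 d. Of 10 leukocyte, mast cell and platelet markers, 1 was called lower in Flk1+ cells at 84 h (2 without the 3 arrays), 0 were called at 95 h and 0 at 8 d, with 0 and 1 at an unadjusted p under 0.05 (limma). The part of these cell types in the values of Kit was not tested.

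Hbb-y was at the reference level or near it in both fractions until 95 h and 4.44-fold to 4.67-fold higher at 8 d than at 95 h. Its log2 ratios at 8 d were 2.08, 1.87, 2.10 and 1.84 in Flk1+ and 2.16, 2.02, 2.17 and 2.01 in Flk1- cells. At 95 h they were -0.09, -0.48, -0.06 and -0.08 in Flk1+ and 0.33, -0.51, -0.16 and -0.20 in Flk1- cells. Every array of 8 d lay above every earlier array, and the fractions overlapped at 95 h and 8 d. The arrays of 8 d and 95 h did not overlap for 34.6% of all features in Flk1+ and 27.8% in Flk1- cells. From 95 h to 8 d the rise was 2.15 in Flk1+ cells (SE 0.14, 95% interval 1.86 to 2.44, 4.44-fold, adjusted p = 2.61e-10). In Flk1- cells it was 2.22 (SE 0.14, 95% interval 1.94 to 2.51, 4.67-fold, adjusted p = 1.68e-10). The changes differed by -0.072 with an interval from -0.48 to 0.33 (adjusted p = 0.999), and the fractions at 8 d by -0.12 with an interval from -0.40 to 0.17 (adjusted p = 1).

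At 84 h Hbb-y gave 0.01, 0.40, 0.11 and 0.27 in Flk1+ and -0.22, -0.22, -0.07 and -0.07 in Flk1- cells. The arrays did not overlap, yet the difference of 0.34 (95% interval 0.054 to 0.63) missed the threshold (adjusted p = 0.0939); 17.4% of features did not overlap at that time. Without the 3 arrays of 84 h it was 0.23. In Flk1+ cells 95 h and 84 h differed by -0.38, likewise without overlap, and missed the threshold (adjusted p = 0.0577), where 13.2% of features did not overlap. At 95 h the sort difference was -0.043 (adjusted p = 0.996). In order of mean, Flk1- 8 d stood at 2.09 ± 0.087 and Flk1+ 8 d at 1.97 ± 0.14, which overlapped. After a gap of 1.77 came Flk1+ 84 h at 0.20 ± 0.17, Flk1- 95 h at -0.14 ± 0.35, Flk1- 84 h at -0.14 ± 0.088 and Flk1+ 95 h at -0.18 ± 0.20 (SD, n = 4 each), each overlapping the next.

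The partner of Hbb-y in embryonic hemoglobin, Hba-x, was also higher at 8 d than at 95 h. At 84 h it gave -0.40, 0.12, -0.56 and -0.38 in Flk1+ and -0.33, -0.25, -0.44 and -0.37 in Flk1- cells. Unlike Hbb-y, Hba-x thus overlapped between 84 h and 8 d in Flk1+ cells. On arrays 1 to 4 of 8 d it gave 0.054, 0.086, 0.29 and 0.16 in Flk1+ and 1.26, 0.86, 1.20 and 1.06 in Flk1- cells, and at 95 h -0.31, 0.034, -0.99 and -0.76 in Flk1+ and 0.38, 0.23, -0.74 and -0.37 in Flk1- cells. It rose in Flk1- cells by 1.22 (adjusted p = 0.00034) and by 0.65 in Flk1+ cells (SE 0.22, adjusted p = 0.033). The second call held in 9 of 15 alternatives, with adjusted p up to 0.125. The difference of these changes was -0.56 (adjusted p = 0.752). At 8 d the Flk1+ arrays were all below the Flk1- arrays, as were 15.9% of features in either direction, and the difference of -0.95 missed the threshold (adjusted p = 0.0589). With the replicate number as a block it passed (-0.95, adjusted p = 0.00216), as it did with quantile normalization (-1.05, adjusted p = 0.00795) and in 6 of 15 alternatives in all. The Hbb-y difference at 8 d passed in none of them.

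Of 14 listed globin and hemoglobin partner genes 6 were measured, Hbb-y among them. From 95 h to 8 d 2 rose and 2 fell in Flk1+ cells (median 0.088). In Flk1- cells 2 rose and 1 fell (median 0.035). The risers in both fractions were Hbb-y itself and Hba-x. Over all features 12.8% rose and 9.31% fell in Flk1+ cells, and 9.88% and 7.78% in Flk1- cells. Hbb-b2, an adult beta globin, kept group means from -1.93 to -1.67 and changed by 0.25 (adjusted p = 0.184) and -0.018 (adjusted p = 0.949). The adult gene is related in sequence to Hbb-y, and whether the probes bind related globins was not tested. Bpgm, the red cell enzyme that makes bisphosphoglycerate, fell by 0.29 and 0.32 (adjusted p = 0.0294 and 0.0189), and the first call held in 8 of 15 alternatives. Mb, the muscle oxygen store myoglobin, fell by 0.56 in Flk1+ cells (adjusted p = 0.00814) and gave -0.32 in Flk1- cells (adjusted p = 0.144). At 84 h, 95 h and 8 d none of the 6 was called between the fractions, with 1, 0 and 1 at an unadjusted p under 0.05 (limma).

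**Figure D3:**
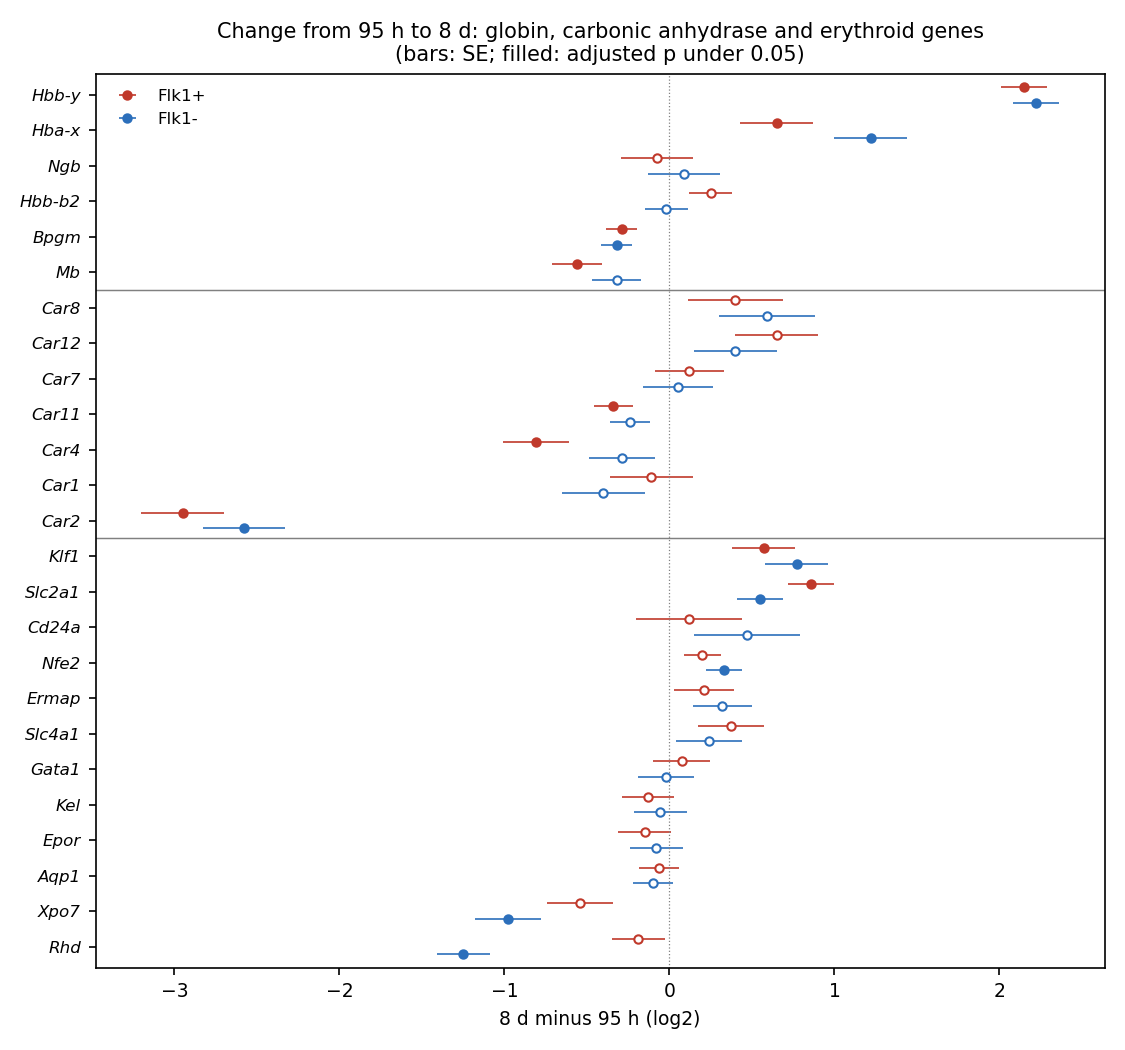
Change from 95 h to 8 d in log2 (horizontal axis) for the measured globin, carbonic anhydrase and erythroid genes (vertical axis) in Flk1+ and Flk1- cells; bars are SE and filled points have an adjusted p under 0.05. Hbb-y at 2.15 and 2.22 and Car2 at -2.95 and -2.58 lie farther from 0 than any other gene shown.

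Of 12 measured of 27 listed erythroid membrane, receptor and factor genes, 2 rose and 0 fell in Flk1+ cells from 95 h to 8 d (median 0.095), and 3 rose and 2 fell in Flk1- cells (median 0.11). Over all features 12.8% rose and 9.31% fell in Flk1+ cells and 9.88% and 7.78% in Flk1- cells. Klf1, the transcription factor that drives globin genes, gave -0.57, -1.20, -0.83 and -1.10 in Flk1+ cells at 95 h and -0.46, -0.31, -0.48 and -0.19 at 8 d. In Flk1- cells it went from -0.50, -1.01, -0.84 and -0.81 to 0.037, -0.042, 0.11 and -0.19. Between 95 h and 8 d it did not overlap in either fraction, as was so for 34.6% (Flk1+) and 27.8% (Flk1-) of all features. Earlier, at 84 h, Klf1 ranged from -1.19 to 0.10 in Flk1+ cells, so it overlapped 8 d there. That highest value, above every Flk1+ array of 8 d, came from array 2, which stood apart. In Flk1- cells the 84 h range, -0.74 to -0.63, lay below 8 d. From 95 h to 8 d Klf1 rose by 0.57 in Flk1+ (adjusted p = 0.0374) and 0.77 in Flk1- cells (adjusted p = 0.00655). The first call held in 6 of 15 alternatives and the second in all 15. Those that fell in Flk1- cells were Rhd and Xpo7, a nuclear transport receptor gene known from red cell maturation, which fell by 0.98 (adjusted p = 0.00121) and gave -0.54 in Flk1+ cells (adjusted p = 0.054). Slc2a1, the glucose transporter Glut1, rose by 0.86 in Flk1+ and 0.55 in Flk1- cells. Gata1, the master factor of the red cell lineage, changed by 0.073 and -0.02, neither of which passed the test.

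Rhd, which encodes a red cell membrane protein, was lower in Flk1+ than in Flk1- cells at 84 h and 95 h, with differences of -1.0 and -0.87 (adjusted p = 0.000431 and 0.00363). With quantile normalization the first was -0.55 (adjusted p = 0.0489). In Flk1- cells it fell by 1.25 to 8 d (adjusted p = 9.37e-06), to a level at which the fractions differed by 0.19. In Flk1+ cells it gave -0.19, and the difference of these changes was 1.06 (adjusted p = 0.0364, called in 11 of 23 alternatives).

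Of 20 measured of 27 listed heme and iron genes, 4 rose and 1 fell in Flk1+ cells from 95 h to 8 d (median -0.028), and 3 rose and 1 fell in Flk1- cells (median 0.049). Over all features 12.8% rose and 9.31% fell in Flk1+ cells, and 9.88% and 7.78% in Flk1- cells. Slc40a1, which encodes the iron exporter ferroportin, went from -2.43, -2.02, -2.15 and -2.18 to -0.40, -0.47, -0.71 and -0.47 in Flk1+ cells. It rose by 1.68 there (adjusted p = 3.72e-08) and by 0.95 in Flk1- cells (adjusted p = 9.45e-05), with a difference of these changes of 0.73 (adjusted p = 0.189), and both calls held in 15 of 15 alternatives. Without the 3 arrays of 84 h, 6 rose and 3 fell in Flk1+ cells and 7 rose and 1 fell in Flk1- cells.

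Of 12 measured of 26 listed regulators of early blood formation, 0 were called between the fractions at any time in the main fit. At 84 h, 95 h and 8 d, 4, 1 and 0 had an unadjusted p under 0.05 (limma). Etv6 was called higher at 84 h with the 3 arrays left out (0.51, adjusted p = 0.0137, against 0.26 and 0.184 with them). With the replicate number as a block, Myb (-0.29, limma adjusted p = 0.0194) and Mecom (-0.5, 0.0169) were called lower at 84 h. Meis1 was called higher in that fit (0.36, limma adjusted p = 0.0392). From 84 h to 95 h Meis1 was called lower and Etv6 higher in Flk1+ cells, and 0 were called in Flk1- cells. These calls held in 10 and 7 of 15 alternatives, and neither held without the 3 arrays of 84 h. Meis1 on Flk1+ 84 h array 2 was 0.12, near the highest Flk1+ array of 8 d (0.11). From 95 h to 8 d, 2 rose and 0 fell in each fraction, Mecom and Meis1, both transcription factors of blood stem cells, where 12.8% of all features rose in Flk1+ and 9.88% in Flk1- cells. Mecom went from -1.19, -1.22, -1.75 and -1.66 to -0.067, 0.026, 0.0018 and 0.011 in Flk1+ cells, a rise of 1.45 (adjusted p = 3e-06), and rose by 0.68 in Flk1- cells (adjusted p = 0.00937). The difference of these changes was 0.77 (adjusted p = 0.294). Meis1 rose by 0.78 and 0.46 (adjusted p = 8.74e-05 and 0.0126). Without the 3 arrays of 84 h, 4 of the 12 rose in Flk1- cells, with Ldb1 (0.38, adjusted p = 0.0056) and Etv6 (0.34, adjusted p = 0.00965) beside these. Myb, Spi1 and Ikzf1, factors of blood progenitors and white cells, kept group means from -0.19 to 0.14, from -0.51 to -0.22 and from 0.13 to 0.28. Of 10 measured leukocyte, mast cell and platelet markers, 1 rose and 2 fell in Flk1+ cells over the same time. In Flk1- cells 0 rose and 2 fell. The riser in Flk1+ cells was Ptprc, a call that held in 5 of 15 alternatives. Laptm5 and the mast cell protease gene Cpa3 fell there, and both calls held in all 15. Over all features 9.31% fell in Flk1+ and 7.78% in Flk1- cells.

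Car2 fell between 95 h and 8 d in both fractions, by 7.73-fold in Flk1+ and 5.99-fold in Flk1- cells. At 95 h it gave 0.98, 0.58, 1.20 and 1.12 in Flk1+ and 1.05, 0.87, 1.25 and 1.41 in Flk1- cells, above the pup reference on every array. At 8 d it gave -2.12, -1.90, -2.0 and -1.92 in Flk1+ and -1.20, -1.80, -1.39 and -1.35 in Flk1- cells, below the reference on every array. In Flk1+ cells the difference was -2.95 (SE 0.25, 95% interval -3.48 to -2.42, 7.73-fold lower, adjusted p = 1.91e-08), where 9.31% of features were called lower. Ranked by signed difference it lay at percentile 0.0172 of all features. In Flk1- cells it was -2.58 (SE 0.25, 95% interval -3.11 to -2.05, 5.99-fold lower, adjusted p = 1.74e-07), at percentile 0.0229, where 7.78% were called lower. The changes differed by -0.37 with an interval from -1.12 to 0.38 (adjusted p = 0.957).

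At 8 d every Flk1+ array of Car2 lay below every Flk1- array, which was so, in either direction, for 15.9% of features. The difference of -0.55 (SE 0.25, 95% interval -1.08 to -0.02, 1.46-fold) had an unadjusted p of 0.0427 and did not pass over all features (adjusted p = 0.987). It passed with array weights (adjusted p = 0.00152) and when the fit held the 8 arrays of 8 d alone (adjusted p = 0.0382). At 84 h the Flk1+ arrays gave 1.55, 0.04, 1.14 and -0.0008 and the Flk1- arrays 1.20, 0.95, 0.90 and 0.66. The 2 low values came from arrays 2 and 4, those that stood apart. The sort difference of -0.24 (adjusted p = 0.53) turned to 0.33 without the 3 arrays, so Car2 has no settled direction there. At 95 h it was -0.18 (adjusted p = 0.956).

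In order of mean, Car2 stood at 1.15 ± 0.23 in Flk1- 95 h, 0.97 ± 0.28 in Flk1+ 95 h, 0.93 ± 0.22 in Flk1- 84 h and 0.68 ± 0.79 in Flk1+ 84 h, each overlapping the next. After a gap of 2.12 came Flk1- 8 d at -1.44 ± 0.26, and without overlap Flk1+ 8 d at -1.98 ± 0.10 (SD, n = 4 each). Of the 7 measured of 16 listed carbonic anhydrase genes, 0 rose and 3, with Car2 among them, fell in Flk1+ cells from 95 h to 8 d (median -0.11), and 0 rose and 1, Car2, fell in Flk1- cells (median -0.24). Over all features 12.8% rose and 9.31% fell in Flk1+ cells, and 9.88% and 7.78% in Flk1- cells. Car4, a membrane-bound form, gave 1.39, 0.90, 1.68 and 1.12 at 95 h and 0.25, 0.61, 0.46 and 0.53 at 8 d in Flk1+ cells, a fall of 0.81 (adjusted p = 0.00557), and it gave -0.29 in Flk1- cells. The difference of these changes was -0.52 (adjusted p = 0.752). At 8 d it was lower in Flk1+ cells by 0.92 on the log2 scale (adjusted p = 0.0447), a call that held in 7 of 15 alternatives and was lost when any 1 array of 8 d was left out. Car1, the other abundant red cell form, changed by -0.11 and -0.40, neither past the test. Car11, a form without enzyme activity, fell by 0.34 in Flk1+ cells (adjusted p = 0.0397), a call that held in 8 of 15 alternatives.

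**Figure D4:**
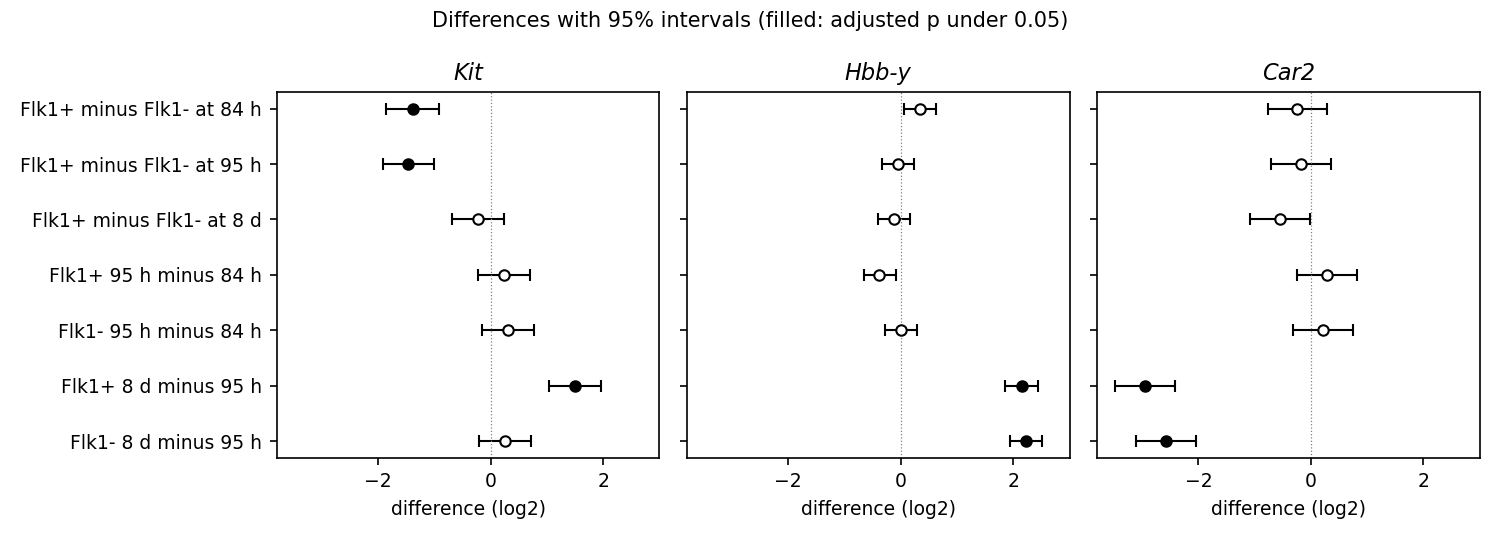
Fitted difference in log2 (horizontal axis) with its 95% interval for Kit, Hbb-y and Car2 in 7 comparisons (vertical axis), 3 between fractions and 4 between times; filled points have an adjusted p under 0.05. Kit passes in both early comparisons of the fractions and in the rise of 1.5 in Flk1+ cells, and Hbb-y and Car2 pass in the comparisons of 8 d with 95 h.

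Over the 24 arrays the values of Hbb-y and Car2 ran opposite, with a Pearson r of -0.95, and those of Kit correlated with Hbb-y at 0.54 and with Car2 at -0.46. These correlations, and those below, pool 6 groups that differ in mean, so they describe the group pattern and share the arrays' normalization. Named genes were ranked by r with each gene over the 24 arrays. For Kit these were Pik3cb (0.945), Slc45a3 (0.916), Mertk (0.894), Igfbp3 (0.887) and Cd9 (0.882). Pik3cb encodes the catalytic beta subunit of phosphoinositide 3-kinase, and its r over the 6 group means was 0.991. For Hbb-y the nearest were Lamb2 (0.979), Creb3l2 (0.974), Tmsb10 (0.971), Igfbp5 (0.970) and Ghr (0.967), among which there was no globin. For Car2 they were Mycl (0.953), Slc25a5 (0.949), Vps36 (0.945), Sgk1 (0.942) and Hnrnpab (0.936). Without the 3 arrays of 84 h, r was 0.926 for Pik3cb with Kit, 0.984 for Lamb2 with Hbb-y and 0.977 for Mycl with Car2.

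**Figure D5:**
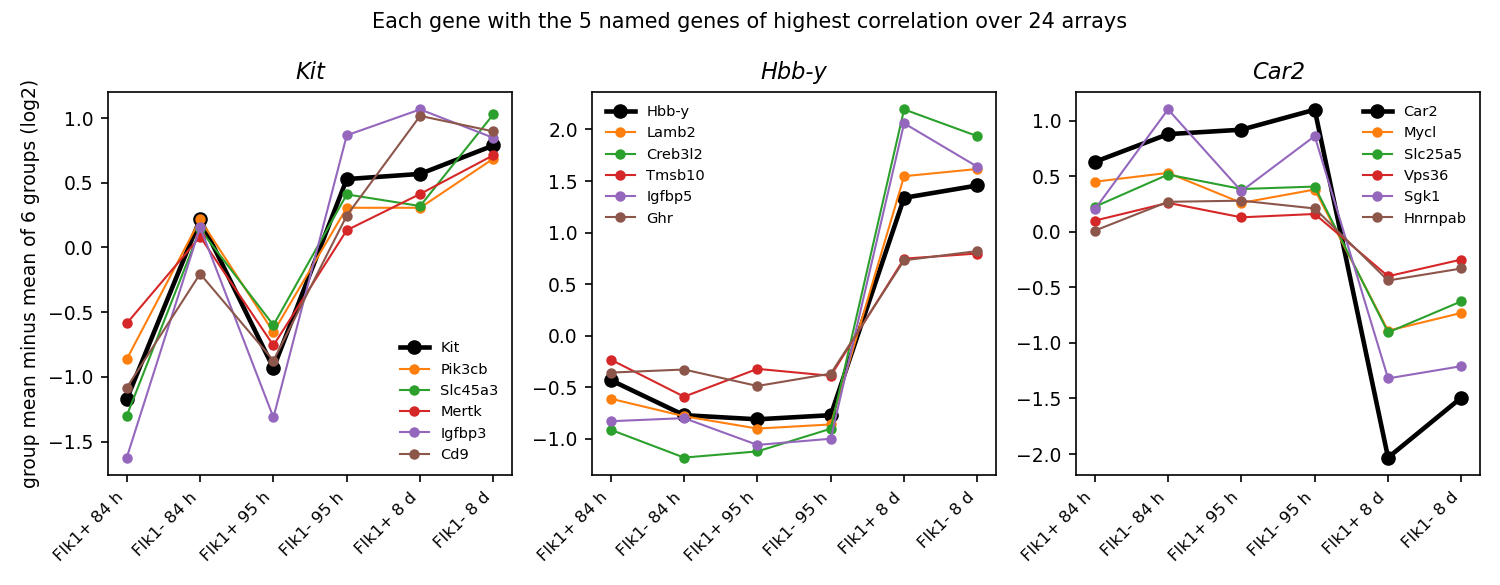
Group mean of each gene minus the mean of its 6 group means in log2 (vertical axis) over the 6 groups (horizontal axis), for Kit, Hbb-y and Car2 and the 5 named genes whose values correlated best with each over the 24 arrays. The genes beside Kit dip in Flk1+ cells at 84 h and 95 h, and those beside Hbb-y and Car2 step up and down at 8 d.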

How the data were processed

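RNA of 24 samples was hybridised against a pup reference on 2-colour Agilent arrays. The deposited values are 1 log ratio per probe and array, handled as log2; the authors' log base, direction, feature extraction, background correction and normalization are not given in the sources used here. The mean of every deposited array was 0, and no value was missing. The direction was read from the data, and each array's median was set to 0. Of 20280 probes, 11813 had 1 gene in the platform annotation, 559 several and 7908 none listed. The gene table held the Entrez identifiers of 11782, and no symbol changed. Probes of a gene were averaged, which left 17440 features, 8973 of them named. No dim-probe filter was possible, and precision is limited by the number of arrays.

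All 24 arrays entered 1 limma fit (version 3.58.1, R 4.3.3, lmFit and eBayes) with a mean per group. Adjusted p-values are Benjamini-Hochberg over all 17440 features, with a threshold of 0.05, and intervals are at 95%. The code was tested on simulated data. Figures used matplotlib 3.10.9 and Python 3.11.15. Promoter letters are RefSeq's, on GRCm38.p6; Car2 was not matched.

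The members and gene lists were chosen with earlier results of these data known. Genes that could be named were the members, Kitl, every measured globin and carbonic anhydrase and the early blood regulators. Beside these came up to 4 called genes of a list with the largest difference, and the 5 genes most like each member. Ngb, Car7, Car8, Car12, Cbfb, Kmt2a, Tcf3 and Hoxb4 were measured but are not described above. With the replicate block Car7 was called higher in Flk1+ cells at 84 h (0.58, limma adjusted p = 0.0434), and not in the main fit. Alternatives were the deposited centring, quantile normalization, only the arrays compared, array weights, single probes, named genes only, a replicate block, the 3 arrays of 84 h left out, and each array left out.

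The labels number samples 1 to 4 in each group. Deviations of same-numbered Flk1+ and Flk1- samples correlated at 95 h (r = 0.14, 0.41, 0.42 and 0.11) and at 8 d (r = 0.29, 0.36, 0.44 and 0.15), so the numbers may pair the fractions there. At 84 h r was 0.34, -0.13, 0.31 and 0.53 for numbers 1 to 4, so number 2 did not correlate and pairing is less clear. Between times 0 of 16 pairs were over 0.1.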

Additional observations from a re-analysis of the deposited data

Results flagged for a closer look

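Hbb-y on Flk1+ 95 h array 2 stood at -0.48, far from the other 3 arrays of its group, which lay between -0.09 and -0.06. It was the only such value among 18 groups of 4 arrays examined for Kit, Hbb-y and Car2, and chance alone flags about 1 group in 20.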

How the results depend on the processing

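The 7 called differences of Kit, Hbb-y and Car2 kept their direction and their call under each alternative and with each single array left out. For the differences that had not passed, 143 of 160 values under an alternative kept direction and side of the threshold, 5 gained a call and 12 changed sign; of 208 values with 1 array left out, 188 kept both, 4 gained a call and 16 changed sign. The cause of these changes was not tested.

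Without the 3 arrays of 84 h and with array weights, respectively, Car2 changed sign in Flk1+ cells from 84 h to 95 h (-0.38 and -0.18), between the fractions at 84 h (0.33 and 0.25) and in the change of that difference to 95 h (-0.51 and -0.52). Kit in Flk1+ cells from 84 h to 95 h did so too (-0.12 and -0.053, and -0.026 with quantile normalization). Hbb-y changed sign with array weights at 95 h between the fractions (0.047) and in Flk1- cells from 84 h to 95 h (-0.016, and -0.0065 as deposited). Calls were gained by Car2 at 8 d (-0.55 with array weights and with only the arrays compared), by Hbb-y in Flk1+ cells from 84 h to 95 h (-0.42 as deposited) and by the change of the Kit sort difference to 8 d (1.24 without the 3 arrays).

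With single arrays left out the ranges were -0.16 to 0.36 for the change of the Car2 sort difference to 95 h, -0.21 to 0.12 for that of Kit, and -0.23 to 0.052 for that of Hbb-y from 95 h to 8 d. They were -0.17 to 0.11 for Hbb-y between the fractions at 95 h, -0.15 to 0.13 in Flk1- cells from 84 h to 95 h, and 1.04 to 1.43 for the change of the Kit sort difference to 8 d. Hbb-y gained a call in Flk1+ cells from 84 h to 95 h without Flk1+ 84 h array 1 or 3 (range -0.44 to -0.28), and between the fractions at 84 h without Flk1+ 84 h array 1 (range 0.28 to 0.40).

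At 84 h same-numbered samples of the fractions correlated except number 2 (r = -0.13). The replicate block there gave Hbb-y 0.34 with limma adjusted p = 0.0305 and raised the features called from 2352 to 4386. The block changed no other call of Kit, Hbb-y or Car2. Counts of features called also moved. Between the fractions at 84 h they ran from 347 (only the arrays compared) to 4386, with 1176 without the 3 arrays, 1304 with quantile normalization, 3625 with weights, and 1017 to 4550 with single arrays left out. At 95 h 354 became 135 with only the arrays compared and 698 without the 3 arrays, and at 8 d 65 became 2332 with weights, 952 with only the arrays compared, 218 with quantile normalization, 172 without the 3 arrays, and 31 to 54 with single arrays left out. In Flk1+ cells from 84 h to 95 h 3451 became 804 with weights, 951 without the 3 arrays, 1625 with quantile normalization, 2039 of named genes only, and 1637 to 5358 with single arrays left out. In Flk1- cells 286 became 2156, 668 without the 3 arrays, 70 with only the arrays compared and 178 with the block, and 93 to 449 with single arrays left out. From 95 h to 8 d 3861 became 6059 with weights and 5864 without the 3 arrays in Flk1+ cells, and 3080 became 6692 and 5087 in Flk1- cells. For the change of the sort difference from 95 h to 8 d 93 became 288 with weights, 161 with only the arrays compared, 173 with the block, 314 without the 3 arrays, and 47 to 101 with single arrays left out; to 95 h, 1 became 46, 31 without the 3 arrays, 5 with the block, and 1 to 11.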
